A study of Sus scrofa with 15 samples.

Results

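The 10 genes described here encode matrix, cytoskeleton and surface proteins that mark fibroblasts and are not collagens. They are *FN1*, *SPARC*, *POSTN*, *LUM*, *DCN*, *VIM*, *ACTA2*, *THY1*, *PDGFRA* and *PDGFRB*, taken by their symbols from a table of 28224 known genes and 15070 assembled transcripts in 15 RNA-seq libraries of pig cells and embryos. Each of the 5 groups held 3 libraries. PFF were primary porcine fetal fibroblasts of passages 2 to 5, the cells whose nuclei were used for somatic cell nuclear transfer (SCNT), in which a donor cell is placed in an enucleated oocyte. SCNT4c and SCNT8c were untreated cloned embryos at the 4-cell and 8-cell stages. SCNT4c-KG were cloned 4-cell embryos injected with mRNA of *KDM4A*, a demethylase of histone H3 lysine 9, and cultured with GSK126, which blocks *EZH2*, the enzyme that methylates histone H3 lysine 27. SCNT4c-TDG were cloned 4-cell embryos made from PFF that carried a doxycycline-inducible vector for *TDG*, thymine DNA glycosylase, and were given doxycycline in culture. The donor cells of SCNT4c-TDG had been transfected and selected with puromycin, and neither those cells nor embryos given doxycycline alone or a control injection were analysed here. Each embryo library came from 30 pooled embryos. All 15 libraries were made from amplified cDNA.

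Fibroblasts build and hold the connective tissue matrix. They secrete fibronectin, collagens and small proteoglycans, bind this matrix through integrins that connect to actin filaments, and answer platelet-derived growth factor (PDGF) through its receptors. A nucleus transferred from a fibroblast enters a cytoplasm filled with maternal RNA, and the programme of the donor cell has to be shut down while the embryonic genome is activated. RNA carried over from the donor cell and RNA newly made in the embryo cannot be told apart in these libraries.

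The values are read counts divided by one factor for each library, here called normalized counts. Whole reads could be recovered in every library and ranged from 22224949 to 22868038 in PFF, 20460653 to 22530486 in SCNT4c, 18083559 to 19549670 in SCNT8c, 12354649 to 15390472 in SCNT4c-KG and 17757929 to 19564459 in SCNT4c-TDG. The deposited columns of SCNT4c name the group without a usable replicate number, and its libraries are called a, b and c. The sample descriptions of SCNT4c-KG are worded like the columns of the untreated 4-cell embryos, so its groups and columns follow the titles and the column names that carry KG, and the values of *KDM4A* below are the check of this assignment. The labels do not say whether the libraries of a group came from separate cultures or separate collections of embryos, so p-values measure the spread between these libraries, which may be technical. The samples of SCNT4c-TDG are numbered apart from the run shared by all other groups. A batch of its own could therefore not be told apart from its treatment. *KDM4A* had 1448 ± 24.9 normalized counts in SCNT4c-KG, 194 ± 103 in SCNT4c and 114 ± 59.4 in SCNT8c, but also 775 ± 194 in SCNT4c-TDG, which had no *KDM4A* injection, and 5005 ± 126 in PFF (SD, n = 3 each). *TDG* had 55575 ± 5177 in SCNT4c-TDG, 1713 ± 802 in SCNT4c and 4366 ± 436 in SCNT4c-KG. Each gene was thus highest among the embryo groups in the one named for it, and both were also above SCNT4c in the other treatment. Single libraries weighed heavily on the stage comparison. SCNT8c and SCNT4c differed in 1096 features in the fit of all embryo libraries, in 6133 without SCNT8c replicate 3 and in 31 to 234 when any other library of these groups was left out.

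The label of PFF was checked against marker genes. The summed normalized counts of the collagen genes *COL1A1*, *COL1A2*, *COL3A1*, *COL5A1* and *COL6A3* lay between 2976222 and 3311250 in PFF, and none of the embryo libraries exceeded 3762. Of the markers of other cell types, *PTPRC* of leukocytes, *CDH5*, *KDR* and *TEK* of endothelium, *EPCAM*, *CDH1* and *KRT19* of epithelium, *FSHR*, *CYP19A1* and *INHA* of granulosa cells, and *MYOD1* and *MYOG* of skeletal muscle were listed at 0 in all PFF libraries. Other markers of these lists were above 0, with *CD14* at 355 ± 20.4 and *CD68* at 81.7 ± 8.42 among the leukocyte markers, *CLDN5* at 63.9 ± 39.0 in endothelium, *CYP11A1* at 57.5 ± 10.6 and *FOXL2* at 27.0 ± 12.6 in granulosa cells, and *KRT18* at 5.65 ± 4.44 in epithelium (SD, n = 3). In PFF the summed markers were 417 to 452 for leukocytes, 29.8 to 107 for endothelium, 84.6 to 120 for granulosa cells and 5.09 to 11.9 for epithelium. Of the 5 smooth muscle markers, *MYH11* and *SMTN* were at 0 in PFF, while *ACTG2* had 58558 ± 10590, *LMOD1* 7275 ± 731 and *DES* 3044 ± 817 normalized counts (SD, n = 3). The summed smooth muscle markers ranged from 55055 to 77732 in PFF and did not exceed 490.1 in any embryo library.

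Together, the 10 genes took 4.84% ± 0.0890 of the normalized counts of a PFF library (SD, n = 3). Their share was 0.0267% ± 0.00240 in SCNT4c, 0.0171% ± 0.00484 in SCNT8c, 0.0215% ± 0.00896 in SCNT4c-KG and 0.0118% ± 0.00121 in SCNT4c-TDG. Every embryo library was below every PFF library for 9 of the 9 genes that were above 0 in PFF. Of all tested features, 77.3% to 87.7% did not overlap, in either direction, in the comparisons of single embryo groups with PFF. The share of features below PFF in every embryo library was not computed. The narrowest gap was that of *DCN*, whose lowest PFF value was 3.59 times its highest embryo value, and the widest that of *PDGFRB*, at 1500.2 times. Of the 120 values of these genes in embryo libraries, 33 were 0, including the 12 of *PDGFRA*.

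**Figure D1:**
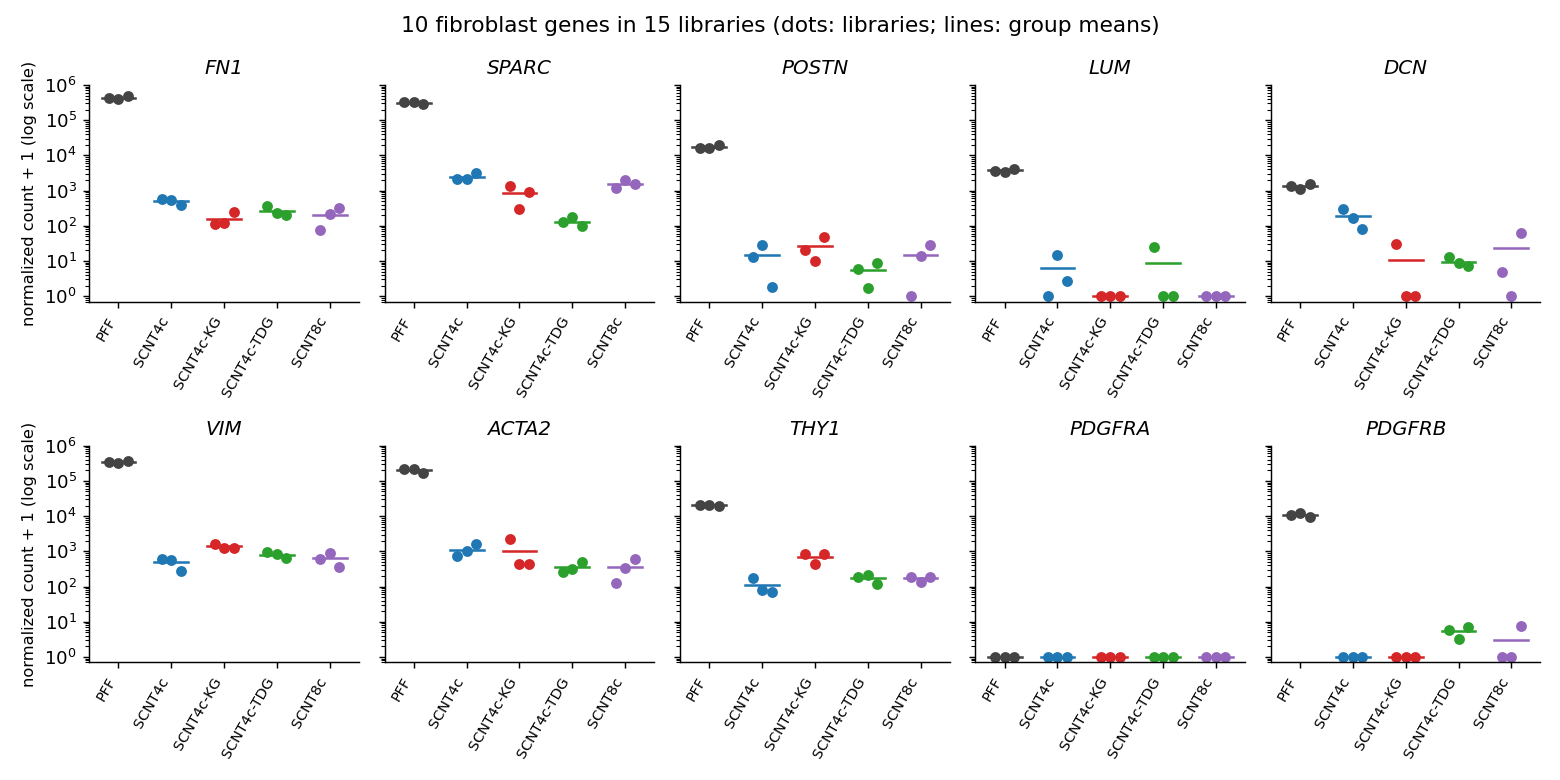
Normalized counts plus 1 of the 10 fibroblast genes in each of the 15 libraries on a log axis, with one dot per library and a line at each group mean. PFF libraries sit above all embryo libraries for 9 genes, *DCN* shows the narrowest gap, and *PDGFRA* is at 0 in all libraries.

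Stretches of 250 bases before the annotated starts of the 10 genes were compared with those of all 19556 protein-coding genes of Sscrofa11.1 with such a window, and each motif named here was searched on both strands. The median observed over expected CpG ratio was 0.427 for the 10 genes and 0.616 for all windows, and *LUM* was lowest at 0.0769. The CArG box is the site of serum response factor that is known for actin genes. Its strict form, with only A or T between CC and GG, was found in 0 of the 10 windows and in 1.31% of all windows. This form misses boxes with a C or G among the central bases, so 0 does not show that a gene lacks the site. With 1 of the central A or T bases changed to C or G, which was tried after the first search, the box was found in the window of *ACTA2* alone and in 5.72% of all windows. In *ACTA2* it started 125 and 75 bases before the annotated start. TGANTCA, a pattern that takes in the AP-1 site, occurred in the windows of *POSTN*, *PDGFRA* and *PDGFRB*, against 5.27% of all windows. The AP-1 site itself, TGACTCA or TGAGTCA, which was searched after the first motifs, was found in that of *PDGFRB* alone and in 2.90% of all windows. GGAATG, a TEAD site, occurred only in that of *ACTA2* (10.3% of all windows), GGGCGG, the GC box, only in that of *PDGFRB* (45.9%), and TATAAA in none of the 10 (9.77%). A match is a description of letters, and binding was not measured here. The windows of 3 of the genes with matches are shown in transcript direction, with the CArG-like matches of *ACTA2* and the TGANTCA matches of *POSTN* and *PDGFRB* in capitals. The window of *PDGFRA* is not shown. The window of *ACTA2* is chr14:100886733-100886982, that of *POSTN* is chr11:13258974-13259223 and that of *PDGFRB* is chr2:151192819-151193068, all on the minus strand of Sscrofa11.1 as annotated by RefSeq.
ACTA2: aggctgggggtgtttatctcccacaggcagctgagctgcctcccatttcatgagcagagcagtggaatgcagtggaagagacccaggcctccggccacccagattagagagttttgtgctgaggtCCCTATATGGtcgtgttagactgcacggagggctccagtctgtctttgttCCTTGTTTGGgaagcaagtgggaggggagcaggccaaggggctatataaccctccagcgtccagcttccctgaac
POSTN: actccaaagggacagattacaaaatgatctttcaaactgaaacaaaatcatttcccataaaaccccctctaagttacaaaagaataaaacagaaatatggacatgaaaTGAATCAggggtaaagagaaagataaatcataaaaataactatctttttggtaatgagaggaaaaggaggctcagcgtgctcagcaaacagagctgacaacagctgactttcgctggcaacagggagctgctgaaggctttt
PDGFRB: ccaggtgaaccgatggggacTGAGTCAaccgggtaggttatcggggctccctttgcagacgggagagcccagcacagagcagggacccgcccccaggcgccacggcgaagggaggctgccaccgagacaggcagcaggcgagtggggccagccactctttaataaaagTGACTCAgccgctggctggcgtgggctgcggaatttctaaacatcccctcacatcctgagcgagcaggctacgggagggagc

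*FN1* encodes fibronectin, the glycoprotein that links cells through integrins to the collagen matrix, and lies on the minus strand of chromosome 15 (117658158 to 117737145, in the Sscrofa11.1 assembly, as for every gene here). It had 418083, 409902 and 482024 normalized counts in the PFF libraries. It had 591, 544 and 390.2 in SCNT4c libraries a, b and c, and 74.7, 215 and 323 in SCNT8c replicates 1, 2 and 3. It had 109, 122 and 248 in SCNT4c-KG and 361, 223 and 201 in SCNT4c-TDG. All embryo libraries were thus far below PFF, and the SCNT4c libraries were the highest of the embryos. The mean was 859-fold lower than in PFF in SCNT4c, 2136-fold in SCNT8c, 2734-fold in SCNT4c-KG and 1667-fold in SCNT4c-TDG. In SCNT4c the log2 fold change against PFF was -9.76 with a standard error (SE) of 0.17 (limma adjusted p = 4.3e-07). In these and the following comparisons a gene was called as changed where limma on log2(normalized count + 1) gave a fold above 2 with a Benjamini-Hochberg adjusted p under 0.05, and that scale understates the change of low genes.

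*SPARC* encodes osteonectin, a matricellular glycoprotein that binds collagen, and lies on chromosome 16 from 71368164 to 71380972 on the plus strand, where it overlaps the annotated LOC110257252 on the other strand. The strand setting of the counting is not given in the sources used here, so reads from the overlap cannot be told apart. PFF had 320043, 336349.9 and 282089 normalized counts. SCNT4c had 2105, 2074 and 3058, and SCNT8c had 1150.1, 2014 and 1558. SCNT4c-KG had 1319.9, 293 and 895, and SCNT4c-TDG had 125, 171 and 96.4. The 4 embryo groups thus fell in the order SCNT4c, SCNT8c, SCNT4c-KG and SCNT4c-TDG, and of these neighbours only SCNT8c and SCNT4c-KG overlapped. Means were 129.7-fold lower than in PFF in SCNT4c, 199-fold in SCNT8c, 374-fold in SCNT4c-KG and 2394-fold in SCNT4c-TDG. Per kilobase of exon, *SPARC* was the highest of the 10 genes in PFF, at 169554 normalized counts, and also in SCNT4c, at 1307, and SCNT8c, at 853.

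*POSTN* encodes periostin, a matricellular protein that supports collagen crosslinking, on chromosome 11 from 13225183 to 13258973 on the minus strand, overlapping LOC102166397 on the plus strand. PFF had 16307, 16097 and 19461 normalized counts. SCNT4c had 11.8, 28.0 and 0.830, SCNT8c 0, 13.3 and 27.5, SCNT4c-KG 19.6, 8.88 and 47.0, and SCNT4c-TDG 5.02, 0.767 and 7.65. These embryo values stood on 159 reads in all 12 libraries and overlapped between all neighbouring groups in the order of means. The means were 1277-fold lower than in PFF in SCNT4c and 3860.1-fold lower in SCNT4c-TDG.

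*LUM* and *DCN* encode lumican and decorin, small leucine-rich proteoglycans that bind collagen fibrils and set their spacing. They are neighbours on the plus strand of chromosome 5, *DCN* from 91678601 to 91713925 and *LUM* from 91748871 to 91756381. *LUM* had 3661, 3295 and 4214 normalized counts in PFF. It was above 0 in only 3 embryo libraries, SCNT4c library b with 14.0 (16 reads), SCNT4c library c with 1.66 (2 reads) and SCNT4c-TDG replicate 1 with 23.4 (28 reads). With all libraries at 0, *LUM* was at least 860.4-fold lower than PFF in SCNT4c-KG and at least 1319.7-fold lower in SCNT8c, taking 3 reads per library as the floor. *DCN* had a lower level in PFF, with 1359.7, 1099 and 1493, but was above *LUM* in every untreated 4-cell library. SCNT4c had 306, 170.4 and 81.4 normalized counts of *DCN* in libraries a, b and c, which is 14.1% of the PFF mean, whereas the other 8 genes above 0 in PFF had at most 0.771% there. *DCN* was 21.7 ± 34.4 in SCNT8c, where replicates 1 to 3 had 3.73, 0 and 61.3 (SD, n = 3). It was 29.4, 0 and 0 in SCNT4c-KG and 11.7, 7.67 and 6.12 in SCNT4c-TDG. The difference of *DCN* between SCNT4c and PFF was the smallest of the 9, at a log2 fold change of -3.00 (SE 0.48, 95% confidence interval -4.18 to -1.83, limma adjusted p = 0.00132). The PFF mean of normalized counts was 7.09 times the SCNT4c mean. In a fit of all 15 libraries its adjusted p was 0.0538, the only call against PFF that was lost under an alternative.

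*VIM* and *ACTA2* encode cytoskeletal proteins. *VIM* encodes vimentin, the intermediate filament protein of mesenchymal cells, on chromosome 10 from 43516441 to 43526172 on the plus strand. PFF had 333907, 328059 and 360379 normalized counts of *VIM*. SCNT4c had 619, 554 and 272, and SCNT8c had 601, 913 and 369. SCNT4c-KG had 1663, 1266 and 1209.8, and SCNT4c-TDG had 927, 853 and 647. SCNT4c-KG thus held the 3 highest embryo values of *VIM*. The means were 707-fold lower than in PFF in SCNT4c, 543-fold in SCNT8c, 247-fold in SCNT4c-KG and 421-fold in SCNT4c-TDG. *ACTA2* encodes smooth muscle alpha-actin, which fibroblasts make when they turn into contractile myofibroblasts, on chromosome 14 from 100868145 to 100886732 on the minus strand. It had 217685, 220193 and 166439 normalized counts in PFF, and 722, 1049 and 1593 in SCNT4c. It had 129, 340.0 and 589.5 in SCNT8c, 2256, 442 and 433 in SCNT4c-KG, and 263, 322 and 484 in SCNT4c-TDG. SCNT4c-KG replicate 1 was the highest embryo library for *ACTA2*, above all of SCNT4c, while its replicates 2 and 3 were below all of SCNT4c. Means were 179.6-fold lower than in PFF in SCNT4c and 571-fold lower in SCNT8c. The coding regions of actin genes are very similar, and only uniquely mapped reads were counted, so reads shared by *ACTA2*, *ACTG2*, *ACTB* and *ACTG1* may have been lost.

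*THY1* encodes CD90, a glycoprotein on the surface of fibroblasts, on chromosome 9 from 46607022 to 46612691 on the minus strand. PFF had 20479, 21206 and 19991 normalized counts. SCNT4c had 169.6, 78.6 and 69.7, and SCNT8c had 191, 129.7 and 186. SCNT4c-KG had 843, 428 and 829, and SCNT4c-TDG had 189.8, 214 and 115. The 3 SCNT4c-KG values were the highest of the embryos and amounted to 3.40% of the PFF mean, a 29.4-fold lower mean, against 194-fold in SCNT4c, 122-fold in SCNT8c and 119-fold in SCNT4c-TDG. *PDGFRB*, the PDGF receptor beta, lies on chromosome 2 from 151155753 to 151192818 on the minus strand. It had 10995, 12387 and 9509.8 normalized counts in PFF and 0 in all libraries of SCNT4c and SCNT4c-KG, which is at least 4398-fold and at least 2534-fold lower. SCNT4c-TDG had 5.02, 2.30 and 6.12, SCNT8c replicate 3 had 6.34, and the other SCNT8c libraries had 0, together 23 reads. *PDGFRA*, the PDGF receptor alpha, on chromosome 8 from 40966568 to 41021440 on the plus strand, was listed at 0 in all 15 libraries, PFF included. Its gene entry could not be tested. An assembled transcript without gene name at its place had 22.0, 8.92 and 13.1 normalized counts in PFF and 0 to 49.7 in the embryo libraries. Since the entry was at 0, adding this transcript to it tested the transcript alone, and whether it belongs to *PDGFRA* was not established. The transcript was not called against PFF in limma, with log2 fold changes of -0.19 in SCNT4c (adjusted p = 0.849), -2.30 in SCNT8c (0.171) and -1.52 in SCNT4c-KG (0.228). In SCNT4c-TDG it did not pass the minimum mean. SCNT4c libraries a, b and c had 49.7, 6.12 and 4.98 normalized counts of it. Of the known genes, 4062, or 14.4%, were listed at 0 in all libraries, and *GDF9* and *BMP15*, oocyte genes, were among them. These floors cover counting error only, while the confidence intervals from limma reflect the spread between libraries.

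In tests against PFF, 9 of 9 tested genes were lower in each of the 4 embryo groups. *LUM* and *PDGFRB* in all embryo groups, *DCN* in both treated groups and *POSTN* in SCNT4c-TDG had embryo means under 10 and passed the minimum mean through PFF alone, so these genes could only be called lower. The background was high, since 38.5% of 19287 tested features were lower than in PFF in SCNT4c, 36.8% of 18448 in SCNT8c, 37.1% of 19072 in SCNT4c-KG and 40.3% of 18210 in SCNT4c-TDG. The features changed in either direction were 78.2%, 70.5%, 76.9% and 79.6% in the same order, and those that were higher 39.7%, 33.7%, 39.8% and 39.3%. Replicates did not overlap, in either direction, for 84.5%, 77.3%, 84% and 87.7% of all tested features in the same order. The median log2 fold change of the 9 genes was -9.55 in SCNT4c, -9.39 in SCNT8c, -8.79 in SCNT4c-KG and -10.32 in SCNT4c-TDG, beside medians of 0.07, -0.15, 0.12 and -0.12 over all tested features. The medians of the 9 genes take in those that could only be called lower. In SCNT4c-TDG the median was the value of *LUM*, which had 28 reads there, all in replicate 1. The 4 comparisons share the PFF libraries. PFF RNA was extracted with another reagent than embryo RNA, so cell type and extraction cannot be told apart. In these bulk libraries, fewer cells of a type and less RNA per cell cannot be told apart either. Marker genes of the oocyte moved with the comparison, with a summed value of 11.5 to 21.5 in PFF, 94553 to 112617 in SCNT4c, 43124 to 53798 in SCNT8c, 35412 to 64784 in SCNT4c-KG and 11610 to 18432 in SCNT4c-TDG. Of these 8 markers, *GDF9* and *BMP15* were at 0 in all libraries. The part of maternal RNA in the differences was not tested.

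**Figure D2:**
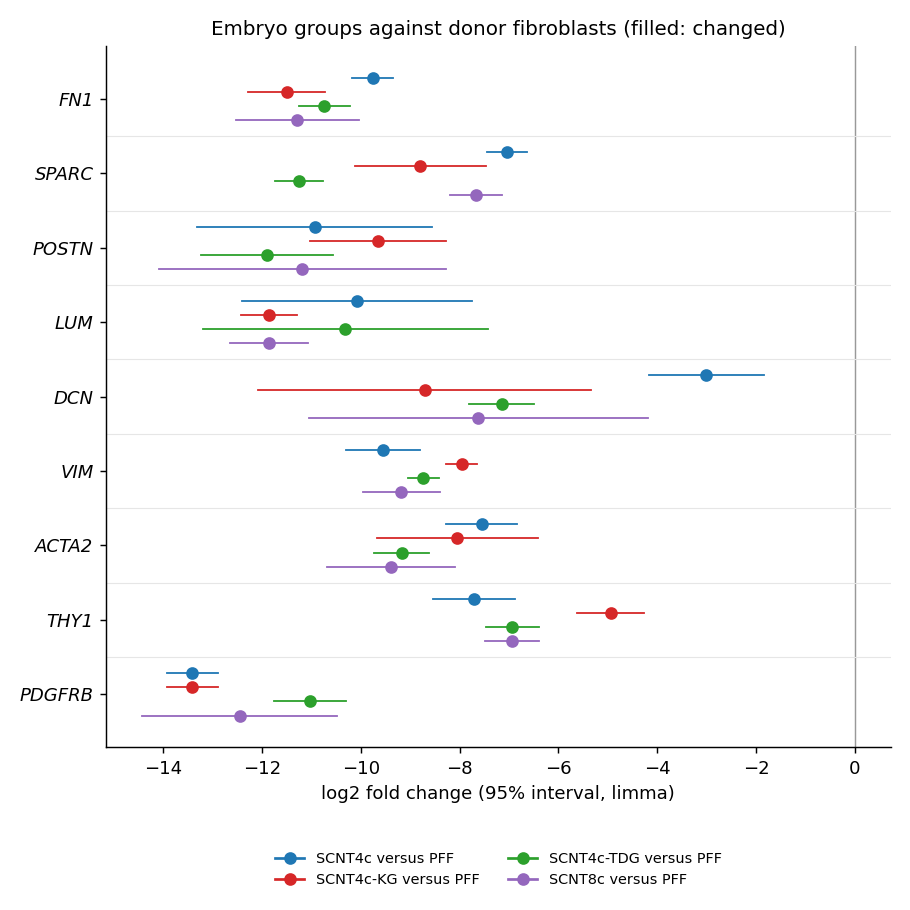
Log2 fold change against PFF, with 95% confidence intervals from limma, for the 9 tested genes in each of the 4 embryo groups. All points lie below 0, *DCN* in SCNT4c is nearest to it at -3.00, and *THY1* is nearer to 0 in SCNT4c-KG (-4.94) than in the other groups.

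SCNT4c-KG was compared with SCNT4c to ask whether the treatment changed the levels of fibroblast genes at the same stage. *FN1*, *SPARC* and *DCN* were lower in SCNT4c-KG and *VIM* and *THY1* were higher, so 5 of the 7 genes that passed the filter of a mean of 10 changed. Over all 18942 features tested, 37.2% changed, 19.6% lower and 17.6% higher, with a median log2 fold change of -0.30 beside -0.49 for the 7 genes. *LUM*, *PDGFRA* and *PDGFRB* did not pass the filter. *THY1* was 6.60-fold higher, at 700.0 ± 236 against 106 ± 55.2 normalized counts (log2 fold change 2.76, SE 0.47, limma adjusted p = 0.000378). *VIM* was 2.86-fold higher, at 1379.7 ± 247 against 482 ± 184 (log2 fold change 1.59, SE 0.40, limma adjusted p = 0.00600). Both were higher in every SCNT4c-KG library than in every SCNT4c library, and 5 of the 7 genes had no overlap between the groups, against 53.9% of all features. *SPARC* was 2.89-fold lower, at 836 ± 516 against 2412 ± 559 (log2 fold change -1.75, SE 0.47, limma adjusted p = 0.00905), and without SCNT4c-KG replicate 2 its log2 fold change was -1.13 (limma adjusted p = 0.0467). *DCN* was lower by a log2 fold change of -5.71 (SE 1.47, limma adjusted p = 0.00702, and 0.0568 in edgeR), and with 2 of its 3 SCNT4c-KG libraries at 0 the size of this change depends on the pseudocount. Its log2 fold change was -7.35 without replicate 1 of SCNT4c-KG and -4.89 without replicate 2 or replicate 3. *FN1* was 3.18-fold lower (log2 fold change -1.74, SE 0.53, limma adjusted p = 0.0178). Its adjusted p in limma was 0.0594 without SCNT4c library a, 0.0573 without library b, 0.0655 without replicate 1 of SCNT4c-KG and 0.0621 without replicate 2 of that group, so the call was lost in each of these cases. The 2 other genes were not called, *ACTA2* with a log2 fold change of -0.49 (95% confidence interval -1.84 to 0.85) and *POSTN* with 1.28 (-1.59 to 4.15).

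SCNT4c-TDG was compared with SCNT4c at the same stage, and 2 of 7 genes changed, *SPARC* and *DCN*, both lower. Over all features, 33.3% changed, 17.6% lower and 15.7% higher, with a median log2 fold change of -0.26 beside -0.98 for the 7 genes. *SPARC* was 18.5-fold lower, at 131 ± 37.7 against 2412 ± 559 normalized counts (log2 fold change -4.21, SE 0.47, limma adjusted p = 1.14e-05). All 3 SCNT4c-TDG libraries were below all 3 SCNT4c libraries, and 5 of the 7 genes had no overlap here, against 58.4% of all features. *DCN* was lower by a log2 fold change of -4.14 (SE 1.47, limma adjusted p = 0.0402), with 8.50 ± 2.88 against 186 ± 113, and this call was lost with any single library left out (adjusted p from 0.0558 to 0.128), with edgeR (0.0562), with a pseudocount of 0.1 (0.19) and without a minimum mean (0.0669). In that last fit *PDGFRB*, which was at 0 in SCNT4c, was tested as well and called as higher (limma adjusted p = 0.0377). This call rested on 17 reads in all of SCNT4c-TDG, against a group without any spread. *ACTA2* missed the threshold in the joint fit of 12 embryo libraries, with a log2 fold change of -1.62 (SE 0.63, limma adjusted p = 0.0596), and passed it in a fit of the libraries of these groups alone (0.00244) and with a minimum mean of 50 (0.0494). *VIM* passed it as higher with DESeq2 (log2 fold change 1.06, adjusted p = 0.037). The remaining genes were not called, with log2 fold changes of -0.98 for *FN1* (95% confidence interval -2.11 to 0.15), 0.82 for *VIM* (-0.03 to 1.66), 0.77 for *THY1* (-0.23 to 1.77) and -0.96 for *POSTN* (-3.83 to 1.91).

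The treatments were then compared with each other, in a test where the shared SCNT4c libraries cancel. *SPARC* and *THY1* were lower in SCNT4c-TDG than in SCNT4c-KG, 2 of 7 genes against 16.2% of all features changed, 9.13% lower and 7.07% higher. The median log2 fold change was -1.13 for the 7 genes and -0.02 for all features. *SPARC* was 6.40-fold lower (log2 fold change -2.46, SE 0.47, limma adjusted p = 0.00266), and its log2 fold change was -3.09 without SCNT4c-KG replicate 2. *THY1* was 4.05-fold lower (log2 fold change -1.99, SE 0.47, limma adjusted p = 0.00919), which became 0.0544 once SCNT4c-TDG replicate 3 was left out. In both genes the libraries of the groups did not overlap, as in 4 of the 7 genes and 44.4% of all features. The other 5 genes were not called. *POSTN* and *VIM* were lower in every SCNT4c-TDG library, with log2 fold changes of -2.24 (95% confidence interval -5.12 to 0.63) and -0.77 (-1.62 to 0.08). The values were -1.13 for *ACTA2* (-2.48 to 0.22), 1.56 for *DCN* (-1.56 to 4.69) and 0.76 for *FN1* (-0.37 to 1.89).

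The stages were compared between untreated embryos, and none of the 7 genes changed between SCNT8c and SCNT4c in limma, edgeR or DESeq2, while 3 had an unadjusted limma p under 0.05. Of all features 5.79% changed, 3.16% lower and 2.62% higher, and the median log2 fold change was -0.31 beside -0.63 for the 7 genes. Libraries did not overlap for *FN1*, *SPARC*, *DCN* and *ACTA2*, all lower in SCNT8c, against 23.5% of all features. The log2 fold changes were -1.52 for *FN1* (95% confidence interval -2.65 to -0.40, limma adjusted p = 0.085), -1.84 for *ACTA2* (-3.19 to -0.50, 0.0829), -4.61 for *DCN* (-7.74 to -1.49, 0.0681) and -0.63 for *SPARC* (-1.63 to 0.37, 0.388). *VIM* had 0.37, *THY1* 0.76 and *POSTN* -0.25. Without SCNT8c replicate 3, *FN1* (-1.97, limma adjusted p = 0.00695), *ACTA2* (-2.34, 0.0101) and *DCN* (-6.23, 0.0032) were called as lower. The same log2 fold changes were nearer to 0 without replicate 1 of SCNT8c, at -0.92 for *FN1* (limma adjusted p = 0.295) and -1.25 for *ACTA2* (0.283), and without replicate 2, at -3.25 for *DCN* (0.239).

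**Figure D3:**
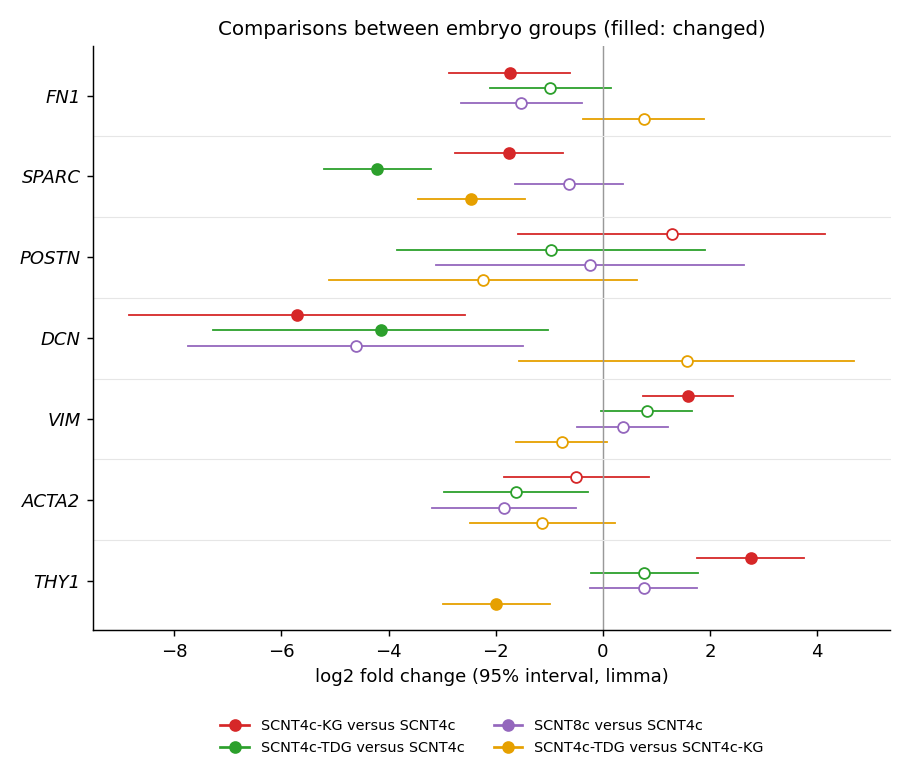
Log2 fold change with 95% confidence intervals from limma for the 7 tested genes in the 4 comparisons between embryo groups. *SPARC* lies below 0 in both treatments against SCNT4c. *VIM* and *THY1* lie above 0 in each comparison with SCNT4c but were called only in SCNT4c-KG. No gene was called between SCNT8c and SCNT4c.

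Partners of these genes were followed through lists of 51 genes in the table, grouped as PDGF ligands, other leucine-rich proteoglycans, other matricellular proteins, elastic and crosslinking proteins, matrix receptors, matrix proteases with their inhibitors, and actin and filament partners. Against PFF, 42 of the 44 tested genes were lower in SCNT4c and in SCNT8c, and 42 of 45 in SCNT4c-KG and in SCNT4c-TDG, beside the 36.8% to 40.3% of all features given above as lower. Of the tested genes, 13 in SCNT4c, 14 in SCNT8c, 10 in SCNT4c-KG and 10 in SCNT4c-TDG had embryo means under 10 and passed the filter through PFF alone. The highest PFF values of the lists were 732879 normalized counts for the matricellular *THBS1*, 282507 for the cytoplasmic actin *ACTG1*, 168236 for the proteoglycan *FMOD*, 92455 for the integrin *ITGB1*, 48274 for the protease *MMP14*, 46188 for the crosslinking enzyme *LOXL2* and 3397 for the ligand *PDGFC*. *FBLN1*, the matrix protein fibulin, was the exception in all 4 groups. It had 10.7 ± 5.31 normalized counts in PFF and 289 ± 167 in SCNT4c, 75.3 ± 54.8 in SCNT8c, 135 ± 40.5 in SCNT4c-KG and 39.4 ± 10.1 in SCNT4c-TDG. *ITGA2*, a collagen-binding integrin, was higher than in PFF (1.65 ± 1.86) in SCNT4c-KG (63.4 ± 45.1) and SCNT4c-TDG (248 ± 62.1). With a PFF mean under 10, *ITGA2* passed the filter through the embryo group alone, so it could only be called higher. *MFAP5*, a microfibril protein, was not called in any of the 4 comparisons, with 55.8 ± 7.16 in PFF and 41.0 ± 21.6 in SCNT4c.

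Between SCNT4c-KG and SCNT4c, 16 of 36 tested list genes changed, 10 lower and 6 higher, beside 37.2% changed over all features. *TIMP2*, an inhibitor of matrix metalloproteases, was higher at 2035 ± 337 against 9.18 ± 4.07 normalized counts (log2 fold change 7.72, limma adjusted p = 5.19e-08). With a mean under 10 in SCNT4c, *TIMP2* passed the filter through other embryo groups. It could thus hardly be called lower than in SCNT4c in either treatment. *ACTB*, cytoplasmic beta-actin, was higher at 5452 ± 1372 against 342 ± 162 (log2 fold change 4.07, limma adjusted p = 1.46e-06). *TNC* (309 ± 144 against 22.7 ± 20.7), *CCN2* (689 ± 96.8 against 260 ± 80.3), *TGFBI* and *ITGA2* were higher as well. The 10 that were lower were *FMOD* and *ASPN* among the proteoglycans, *THBS1*, *SPP1* and *CCN1* among the matricellular genes, the syndecan *SDC2*, and *TAGLN*, *MYL9*, *TPM2* and *LMNA* among the filament partners. *FMOD* had 112 ± 29.5 against 661 ± 204, and *TAGLN*, transgelin, 44.1 ± 38.3 against 188 ± 41.0. *SPP1* and *CCN1* overlapped between the groups.

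In SCNT4c-TDG, 16 of the 36 changed, 11 lower and 5 higher, beside 33.3% over all features. *TIMP2* (994 ± 226), *ACTB* (3564 ± 192), *TGFBI* (13.8 ± 3.46), *ITGB1* (1391 ± 108 against 382 ± 248) and *ITGA2* were higher than in SCNT4c. *FMOD*, *SPP1*, *FBLN1*, *LOXL2*, *ITGB3*, *SDC2*, *TAGLN*, *TPM2*, *CALD1*, *ACTG1* and *LMNA* were lower, with *FMOD* at 136 ± 44.7 and *LOXL2* at 64.3 ± 22.4 against 341 ± 65.4. *ITGB3* was at 0 in all SCNT4c-TDG libraries. *FMOD*, *ITGA11* and *TAGLN* were the only list genes changed in SCNT8c, all lower than in SCNT4c (3 of 36 against 5.79%). Between the treatments, *OGN* and *ASPN* were higher in SCNT4c-TDG and *TNC*, *CALD1* and *ACTG1* lower, 5 of 36 against 16.2%. The comparisons with SCNT4c share its libraries.

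**Figure D4:**
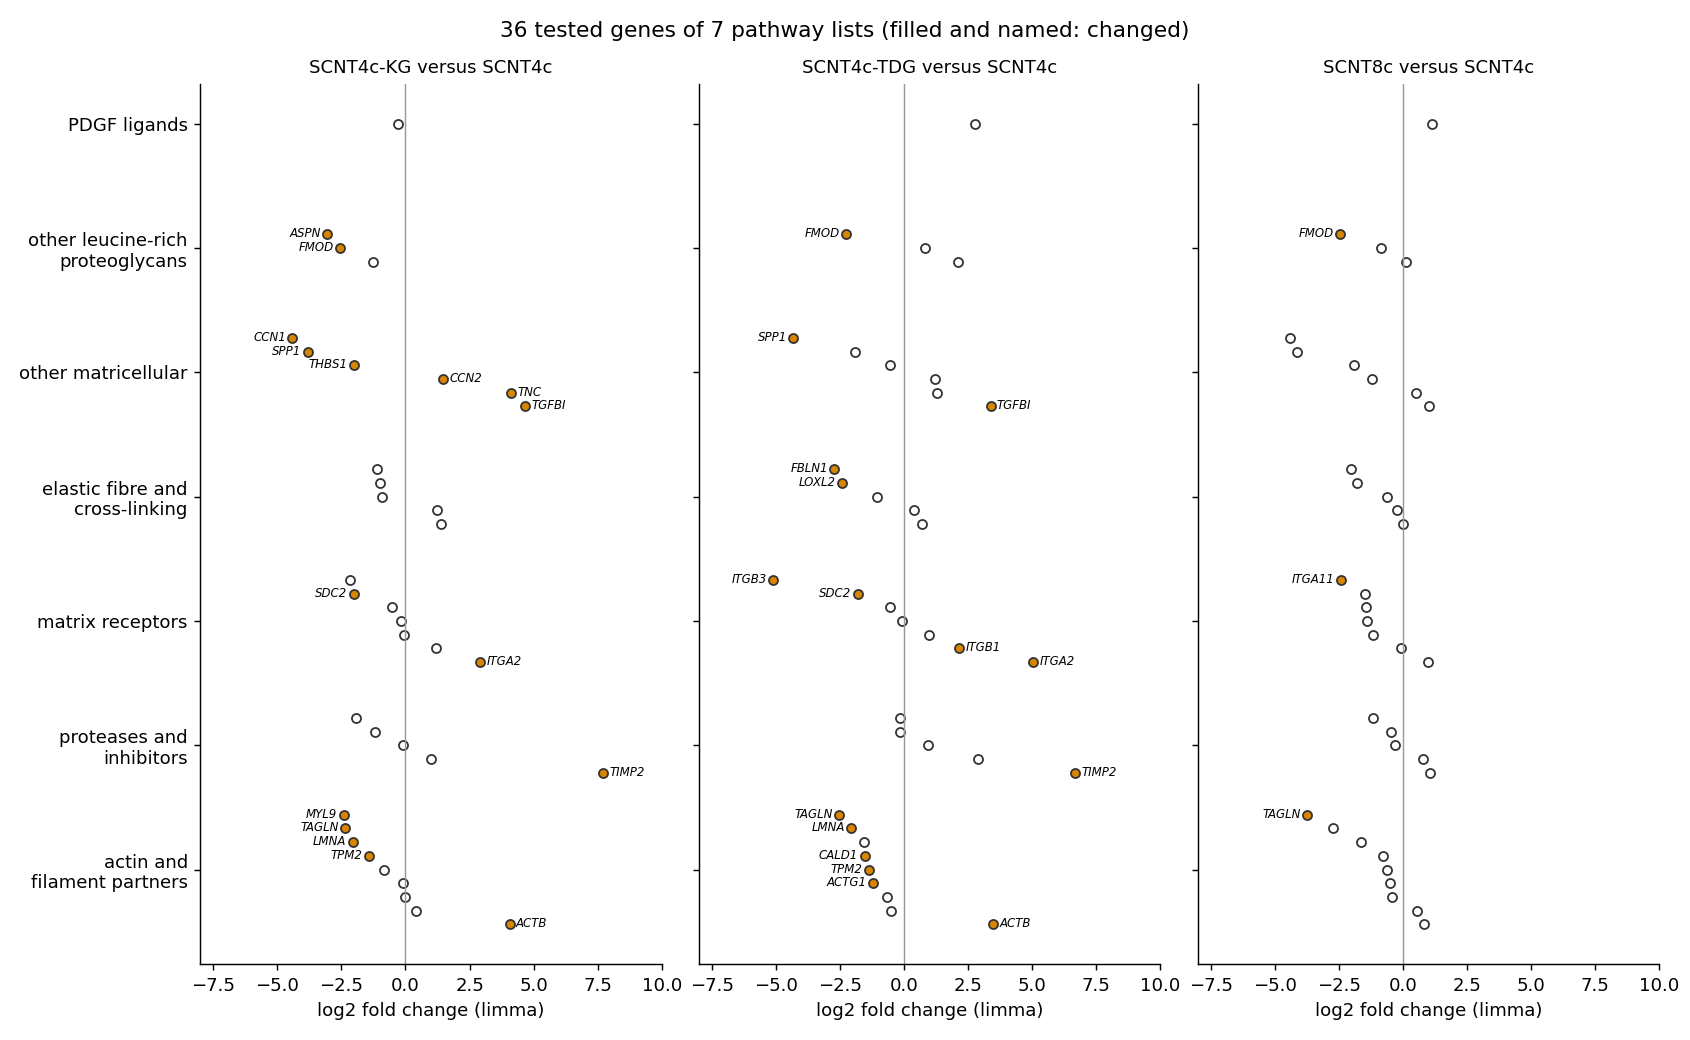
Log2 fold change of the genes of the 7 partner lists in SCNT4c-KG, SCNT4c-TDG and SCNT8c against SCNT4c, with one dot per tested gene and filled, named dots for those called as changed. *TIMP2*, which passed the filter through groups other than SCNT4c, stands highest in both treatments, at 7.72 and 6.67. The 3 named genes of SCNT8c lie below 0.

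Other marker genes moved with these comparisons. Collagen genes summed to 2874 to 3762 normalized counts in SCNT4c, 1177 to 1285 in SCNT8c, 660 to 947 in SCNT4c-KG and 630 to 741 in SCNT4c-TDG. *COL1A2* was called as lower than in SCNT4c (2535 ± 282) in SCNT8c (923 ± 65.3), SCNT4c-KG (472 ± 107) and SCNT4c-TDG (449 ± 51.9). *COL3A1* was called as lower than in SCNT4c (295 ± 65.3) in SCNT8c (44.7 ± 50.1) and SCNT4c-KG (76.4 ± 59.3), and *COL1A1* than in SCNT4c (549 ± 241) in SCNT4c-TDG (155 ± 50.7). The summed oocyte markers given above were lower than in SCNT4c in each library of the other groups, but not every marker was. In SCNT4c-KG, *ZP4*, a protein of the egg coat, and *PADI6* were called as lower, while *ZP3*, another egg coat protein, was called as higher (667 ± 226 against 28.1 ± 21.3). *ZP4*, *PADI6* and *NLRP5* were lower in SCNT4c-TDG, and *ZP2* and *PADI6* in SCNT8c. Between the treatments, *ZP3*, *ZP4* and *PADI6* were lower and *TEK* and *EPCAM* higher in SCNT4c-TDG. Summed endothelial markers were 1029 to 1353 in SCNT4c, 69.8 to 217 in SCNT4c-KG and 433 to 603 in SCNT4c-TDG and 127 to 571 in SCNT8c, with *TEK* alone at 1142 ± 155 in SCNT4c. The endothelial *CDH5* was at 0 in SCNT4c and SCNT4c-KG, and *KDR* had a mean of 1.63 in SCNT4c and 1.69 in SCNT4c-KG. Summed leukocyte markers were 643 to 835 in SCNT4c-KG, 180 to 243 in SCNT4c-TDG, 232 to 470 in SCNT8c and 128 to 164 in SCNT4c. In SCNT4c-KG of the 5 markers *CD14* and *CD68* were called as higher, while *PTPRC* had 65.9 in SCNT4c-KG and 36.9 in SCNT4c. Granulosa markers summed to 178 to 393 in SCNT4c-KG, 60.4 to 88.6 in SCNT4c-TDG, 52.4 to 175 in SCNT8c and 85.2 to 115 in SCNT4c, with *STAR* called as higher in SCNT4c-KG, and the granulosa marker *FOXL2* was at 0 in all embryo groups. Epithelial markers summed to 2723 to 3041 in SCNT4c, 1571 to 2098 in SCNT4c-KG, 3859 to 4124 in SCNT4c-TDG and 1772 to 2357 in SCNT8c, of which *CDH1* rose in both treatments and *EPCAM* fell in SCNT4c-KG. The part of any of these cell types or of maternal RNA in the differences of the 10 genes was not tested.

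**Figure D5:**
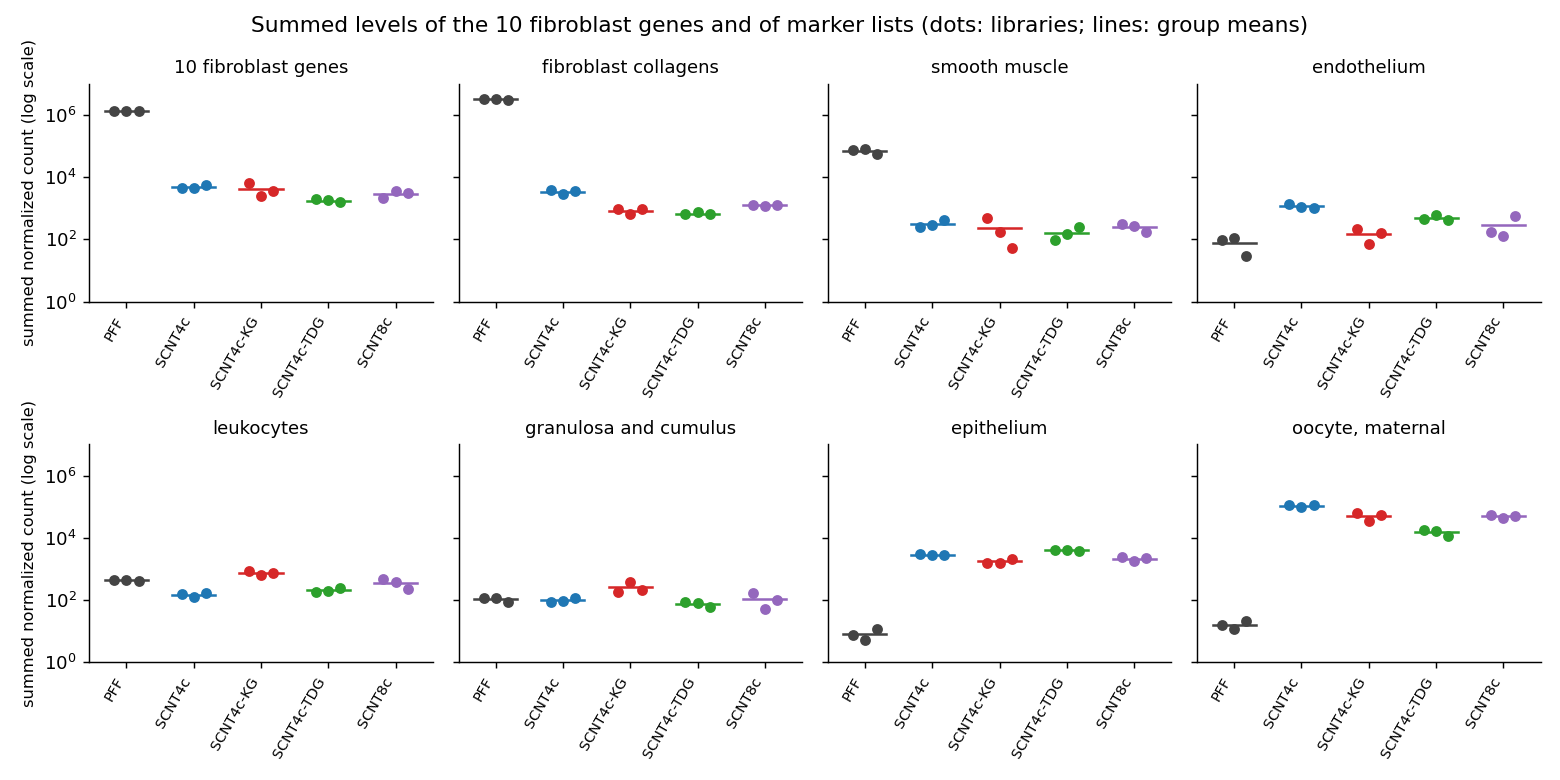
Summed normalized counts of the 10 fibroblast genes and of marker lists in each library on a log axis, with one dot per library. The fibroblast genes and collagens are highest in PFF, and the oocyte markers are highest in SCNT4c and lowest in PFF.

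Over the 12 embryo libraries the genes did not share one pattern. Pearson's r between log2 values was 0.796 for *VIM* and *THY1*, 0.632 for *FN1* and *DCN*, 0.570 for *ACTA2* and *DCN*, -0.567 for *VIM* and *DCN*, and -0.508 for *FN1* and *THY1*. The points are the 3 libraries of each of 4 groups and share library and depth. Among 12799 known genes with a mean of at least 10, those most like *SPARC* were *PGAP3* (0.978), *POLDIP3* (0.961) and *RMDN3* (0.960). Those most like *FN1* were *RNF145* (0.950), *PLEKHA8* (0.928) and *INPP5D* (0.919). For *VIM* they were LOC110257656 (0.964), *LRPAP1* (0.962) and *AURKAIP1* (0.951), for *THY1* *SF3B4* (0.929), *ZNF629* (0.926) and *ADIPOR1* (0.922), and for *ACTA2* *KCTD12* (0.889), LOC110260292 (0.872) and *TMC1* (0.847). *DCN* was most like LOC110256462 (0.964), LOC110260253 (0.953) and LOC110260458 (0.952), and *POSTN* like LOC106508320 (0.831), *GPC6* (0.819) and *SRRM4* (0.808). None of these genes belongs to the lists above.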

How the data were processed

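RNA of 3 libraries per group was sequenced after cDNA amplification. Per the labels and the methods of the study, the authors used CASAVA 1.8.2, Trimmomatic 0.39, STAR 2.5.3a on Sscrofa11.1 with uniquely mapped reads, StringTie 2.1.2, HTSeq and DESeq2. The strand setting and the source of the scaling factor are not given in the sources used here. The deposited signal values are HTSeq counts that the authors divided by one factor per library. Of 43535 entries, 241 repeats were removed. Whole reads were recovered for 100% of values in all 15 libraries (tolerance 0.01 reads).

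Groups were taken from sample titles. Comparisons used limma 3.58.1 (R 4.3.3) with an intensity trend on log2(value + 1) for features with a mean of at least 10. Each embryo group was fitted with PFF alone, and embryo groups were compared in one fit of 12 libraries. P-values were adjusted over all tested features with the Benjamini-Hochberg method and are two-sided. With 3 against 3 libraries an exact permutation test cannot give a p below 0.1, so none was used. edgeR 4.0.16 and DESeq2 1.42.0 on the recovered reads, other pseudocounts, minimum means and scalings, other sets of libraries and a replicate block were alternatives. The fits were also run on simulated counts with few changed features and known scaling. That setting does not cover the comparisons with PFF, where most features changed. A block for the libraries of both treatments alone and the relaxed CArG and strict AP-1 searches were added after seeing the data. Gene places and sequences came from RefSeq.

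All 10 genes are named. Of the partner and marker lists, genes could be named that passed a test between embryo groups, that were highest in PFF or that were not lower than in PFF. Other markers are named for the check of the labels, and with their values known. Genes named for likeness had the 3 highest Pearson correlations. The 10 genes and all lists were chosen with earlier results of these data known.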

Additional observations from a re-analysis of the deposited data

How the results depend on the processing

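Against PFF, 9 genes were lower in each of the 4 embryo groups under all alternatives run, except for DCN in SCNT4c in the fit of all 15 libraries. Leaving out 1 library kept these calls but moved some fold changes by over 1.5 times. In SCNT8c against PFF the log2 fold change became -10.68 for FN1, -9.74 for POSTN and -8.80 for ACTA2 without replicate 1, -6.25 for DCN without replicate 2, and -12.15 for POSTN, -9.23 for DCN and -13.41 for PDGFRB without replicate 3. In SCNT4c it became -9.20 for LUM without library a, -11.80 for POSTN and -11.15 for LUM without library b, and -9.80 for POSTN without library c. In SCNT4c-KG it became -10.35 for DCN and -8.83 for ACTA2 without replicate 1, -8.16 for SPARC without replicate 2, and -7.89 for DCN without replicate 2 or 3. In SCNT4c-TDG it became -11.86 for LUM without replicate 1, -11.22 for POSTN without replicate 2, and -9.55 for LUM without replicate 2 or 3. Over all alternatives and comparisons, 1084 values of single genes kept their direction and their side of the threshold, 7 passed it only under the alternative, 16 no longer passed it and 8 changed sign. The 1084 include settings that could change little. Adding the assembled transcripts left the fits of all genes but PDGFRA as they were, and dropping the fold change limit could not lose a call. Between SCNT4c-TDG and SCNT4c, the number of changed genes was 1 instead of 2 with a pseudocount of 0.1 and with edgeR, and 1 whichever single library was left out. It was 2 without a minimum mean, where PDGFRB, with 17 reads in SCNT4c-TDG, took the place of DCN. It was 3 with a minimum mean of 50, with DESeq2 and in the fit of both groups alone. Between SCNT8c and SCNT4c it was 1 instead of 0 with a pseudocount of 10, and 0 to 3 with single libraries left out, the 3 being without SCNT8c replicate 3. Between SCNT4c-TDG and SCNT4c-KG it was 1 to 2 with single libraries left out, the 1 being without SCNT4c-TDG replicate 3. Between SCNT4c-KG and SCNT4c it was 4 with edgeR and 4 to 5 with single libraries left out. The log2 fold changes that changed sign were those of uncalled genes, namely ACTA2 in SCNT4c-KG against SCNT4c (0.013 with DESeq2), DCN in SCNT4c-TDG against SCNT4c-KG (-0.018 with DESeq2) and POSTN in SCNT8c against SCNT4c (0.12 with quantile normalization, 0.16 with edgeR, 0.21 with DESeq2 and -1.38 to 1.20 with single libraries left out). The cause of these changes was not tested.

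With the replicate block, 9 genes were lower in SCNT8c, SCNT4c-KG and SCNT4c-TDG than in PFF, and 2 differed between SCNT4c-TDG and SCNT4c-KG, as without it. In that last comparison the fit of both groups alone called 4805 features with the block and 4989 without it. The block was not fitted with SCNT4c, whose columns carry no usable numbers. Deviations of libraries with the same number had correlations of -0.06 to 0.19 over 18 pairs, so the libraries were not treated as pairs.

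Over all features, SCNT8c against SCNT4c gave 1096 changed features, 1662 with a pseudocount of 10, 601 without a minimum mean, 2733 with DESeq2, 0 in the limma fit of both groups alone and 31 to 6133 with single libraries left out. SCNT4c-TDG against SCNT4c-KG gave 3070, 4989 in the fit of both groups alone and 1794 to 2521 with single libraries left out. Of the changed features, the higher ones made up 45.3% in SCNT8c against SCNT4c but 79.5% with edgeR, 71.8% with DESeq2 and 56.0% with quantile normalization. It was 43.6% in SCNT4c-TDG against SCNT4c-KG but 63.8% with equal library totals and 53.7% with quantile normalization. Against PFF it was 47.8% in SCNT8c but 58.6% with edgeR and 58.5% with DESeq2, and 49.4% in SCNT4c-TDG but 59.4% with equal totals. Against SCNT4c it was 47.1% in SCNT4c-TDG but 56.0% with equal totals, 55.5% with edgeR, 54.2% with DESeq2 and 54.0% with quantile normalization, and 47.3% in SCNT4c-KG but 53.4% with edgeR and with DESeq2. In SCNT4c against PFF the median log2 fold change of all features was 0.07, 0.67 with equal totals, 0.96 with edgeR and 1.01 with DESeq2. LUM, POSTN, PDGFRB and DCN had few or no reads in many embryo libraries, and their fold changes are the least precise.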
